A study of Mus musculus with 4 samples.

Results

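The 46 genes described here act in mitosis: the cyclin-dependent kinase switch that starts it, the spindle checkpoint, the kinetochore and centromere, the chromosomal passenger complex, the spindle motors, cytokinesis and chromosome condensation. They were taken by gene name, from a list drawn up with earlier results of these data known, and all 46 of them were found among the 36413 gene names on the arrays, on 61 of 55681 probes. C2C12, a mouse myoblast line that divides in growth medium and can form myotubes, received either siFxr1, an siRNA that depletes Fxr1 mRNA, or siControl, a random siRNA of similar GC content, and RNA was taken 48 hrs after transfection. Each condition was measured on 2 arrays, from experiment 1 and experiment 2, and both samples of an experiment were hybridised on the same slide. All 4 samples are the same cell line with no other genetic change stated, and the labels state no further treatment. The question was how the transcripts of the division machinery stood in siFxr1 against siControl within each experiment.

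A cell enters mitosis when cyclin B and its kinase are switched on by CDC25 phosphatases and PLK1. Kinetochores then tie the chromosomes to spindle microtubules, and the checkpoint proteins MAD2, BUB1 and BUBR1 hold back the anaphase-promoting complex (APC/C), an ubiquitin ligase, until every chromosome is attached. Most of these transcripts are made late in the cell cycle and are low in cells that have left it, as myoblasts do when they differentiate, and p21, the product of Cdkn1a, inhibits cyclin-dependent kinases.

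The brighter probe of Fxr1 read 13.84 and 13.71 in siControl and 10.15 and 10.77 in siFxr1 of experiments 1 and 2, in normalized log2 signal, which makes -3.31 on the log2 scale (SE 0.29, adjusted p = 0.950 in limma), and a second probe differed by -3.61. Of 6 myoblast markers, 5 were well above background on all 4 arrays and Myf5 on 0, and of 14 markers of other cell types 3 (Kdr, Cdh5 and Cd3e) were on all 4 and 7 on 0. The correlation was 0.981 and 0.976 within an experiment and 0.965 and 0.961 within a condition. RNA integrity numbers were 9, except for siFxr1 of experiment 1 with 8, and 0 spots were saturated. With 2 arrays per condition their number limits the precision. An exact permutation test (two-sided) that moves arrays freely between experiments cannot go below 0.333 here, and one that swaps only within an experiment has a higher floor. The replicates measure only the spread between these experiments.

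The 2 experiments differed in what they showed for these genes. In experiment 1 the median difference between siFxr1 and siControl, over the 45 genes that could be measured, was 0.02 on the log2 scale, and 38 of these 45 differed by less than 0.5 either way, as did 70.3% of all measured genes. In experiment 2 the median was -0.63, with the middle 50% of genes between -0.87 and -0.42, and 42 of the 45 genes were lower in siFxr1, where 50.1% of all measured genes were. The median over all 19140 measured genes was 0.05 in experiment 1 and 0.00 in experiment 2. A gene counted as measured when its brightest probe, which stands for it, was well above background on both arrays of a condition, as 45 of the 46 were. The exception was Aurkb, the kinase of the chromosomal passenger complex, whose probe was well above background on 1 array of each condition and which is left out of the counts over 45 genes.

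At least 1.5-fold lower signal in siFxr1 was found for 26 of the 45 genes in experiment 2, where 14.7% of all measured genes were that much lower, and for 4 of the 45 in experiment 1, where 10.9% of all measured genes were. In the other direction, 0 of the 45 were at least 1.5-fold higher in experiment 2, against 14.9% of all measured genes, and 1 of them, Gtse1, was in experiment 1, against 12.6%. Counting both experiments together, 22 of the 45 genes were lower in siFxr1 in both, where 29.8% of all measured genes were, and 3 were higher in both, where 34.1% were. In the remaining 20 genes siFxr1 was above siControl in experiment 1 and below it in experiment 2. In 42 of the 45 genes the siFxr1 array stood further below its siControl array in experiment 2 than in experiment 1, which was so for 50.9% of all measured genes.

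**Figure D1:**
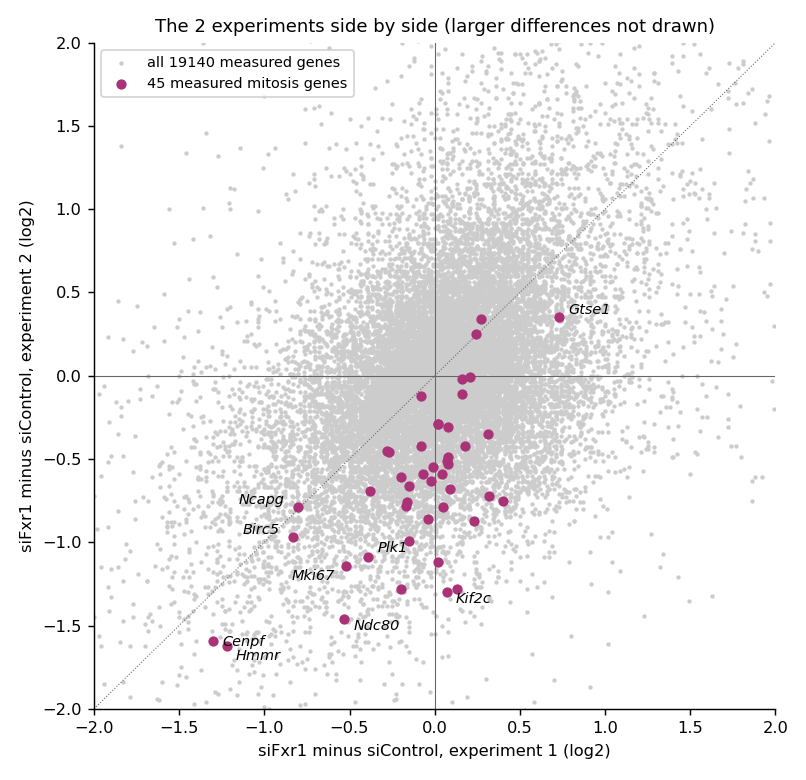
Each point is a gene, with the log2 difference of siFxr1 minus siControl in experiment 1 on the x axis and in experiment 2 on the y axis, for the 19140 measured genes (grey) and the 45 measured mitosis genes (purple), and the dotted line marks equal differences. The mitosis genes lie around 0 on the x axis and mostly below 0 on the y axis, where their quartiles are -0.87 and -0.42. Hmmr and the dim Cenpf lie at the lower left, and Gtse1 is highest in both.

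Where this gap lay depended on the scaling. With quantile normalization, the siControl array of experiment 2 held the highest of the 4 signals for 36 of the 45 genes, against 26.4% of all measured genes. With 75th percentile scaling it did so for 27 of the 45, against 22.6% of all genes. The medians of experiment 1 minus experiment 2 over these genes were then -0.25 in siControl and 0.16 in siFxr1. The values that follow are quantile-normalized. With each gene centred on its own mean, the median of the 45 measured genes was 0.48 on siControl of experiment 2, -0.13 on siControl of experiment 1, and -0.21 and -0.11 on siFxr1 of experiments 1 and 2. Without siControl of experiment 2, the median difference over these genes was 0.04 in place of -0.32, and 19 of the 45 genes were lower in siFxr1 in place of 39, where 9181 of all 19140 measured genes were in place of 8963. Such a comparison leaves siFxr1 of experiment 2 without the siControl sample of its own experiment, so it mixes condition with experiment, and the differences within each experiment stand beside it. Without siControl of experiment 1 the median was -0.67. In bulk RNA, fewer cells in mitosis and less RNA per cell cannot be told apart.

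**Figure D2:**
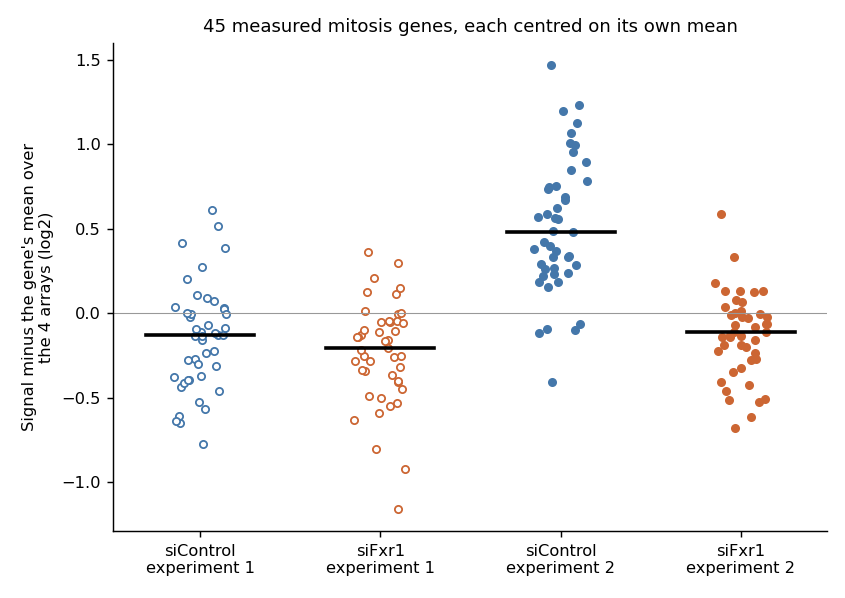
Signal of the 45 measured mitosis genes on each array after subtracting the gene's own mean over the 4 arrays, on a log2 scale, with 1 point per gene and a bar at the median. The siControl array of experiment 2 stands apart with a median of 0.48, and the other 3 arrays have medians between -0.21 and -0.11.

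Of the 55681 probes tested with limma's moderated test (two-sided), 0 had a Benjamini-Hochberg adjusted p under 0.05, which is 0.0% of all, and so did 0 of the 46 genes. Their limma adjusted p ran from 0.950 to 0.998, and their B values, the log odds of a difference, reached at most -4.37. At an unadjusted p under 0.05, the limma fit held 2764 probes in all. Lower in siFxr1 among these were 2.38% of all probes, against 4 of the 46 genes (Birc5, Cenpf, Hmmr and Ncapg) and 7 of their 61 probes, and 0 of the 46 genes were higher. So no gene named here passed the test, and the values that follow describe these 4 samples. With experiment as a block the limma adjusted p of the 46 genes ran from 0.535 to 0.984, again with 0 calls. The SEs given with log2 fold changes come from the fit without this block, so they include differences between experiments.

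In 12 of the 45 genes both siFxr1 arrays were below both siControl arrays, which was so for 14.2% of all measured genes, and in 1 gene, Foxm1, both were above, which was so for 16.5%. In 28 of the 45 the SD between the siControl arrays was larger than the size of the log2 fold change, a share not far from the 56.5% of all measured genes. This SD holds the difference between the experiments, so it does not measure the spread of the differences within an experiment.

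Sequence near the start sites, which the choice by name did not use, was searched in those of the 46 genes whose promoter was listed. Many mitosis genes carry a cell cycle genes homology region (CHR), the site held by the MuvB proteins, which silence these genes in resting cells and switch them on in dividing cells with B-MYB and FOXM1. A CCAAT box, the site of the activator NF-Y, often lies before it. RefSeq promoters of 250 bases before to 50 bases after the start (GRCm38.p6) were listed for 38 of the 46 genes, with 42 promoters. The CHR core TTTGAA, searched on both strands, was present in 27 of these 38 genes (71.1%) and in 20.2% of the 27025 genes listed. Within 50 bases before to 44 bases after the start it began in 24 of the 38 (63.2%) and in 5.72% of all genes. The CCAAT box, letters CCAAT on both strands, was present in 30 of the 38 (78.9%) and in 41.1% of all genes, and both motifs in 24 (63.2%) and in 8.97%. The letters of these motifs can overlap by 1 base at most. The median GC content was 59.2% in the promoters of the 38 genes and 52.8% in all. Absence of a match says only that these letters were not in the window.

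**Figure D3:**
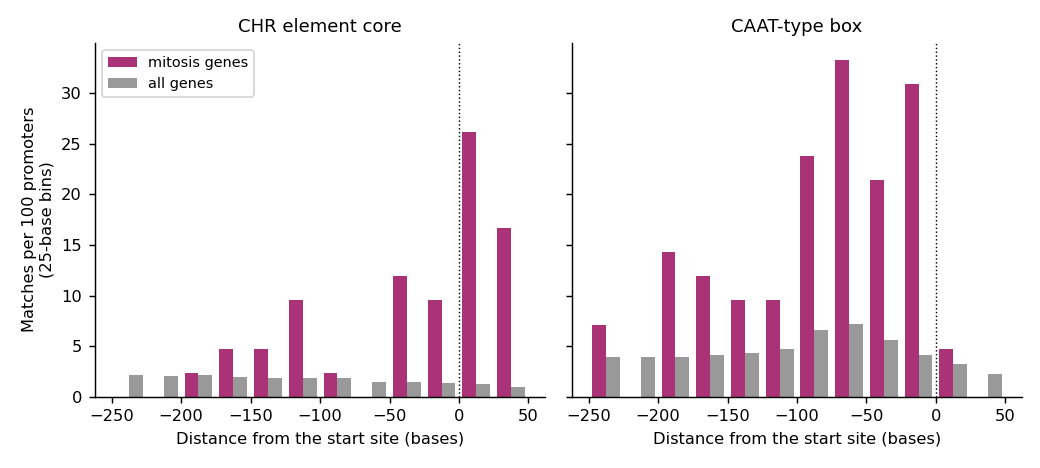
Matches per 100 promoters in bins of 25 bases against distance from the start site, for the CHR core (left) and the CCAAT box (right, titled CAAT-type box), in the 42 promoters of the mitosis genes (purple) and in all listed promoters (grey). The CHR core peaked from 0 to 25 bases after the start at 26.2 matches per 100 mitosis gene promoters against 1.31 in all, and the CCAAT box from 75 to 50 bases before the start at 33.3 against 7.20.

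To show how the motifs sit, the stretch from 80 bases before to 30 bases after the start is given below for Ccnb1, Cdc20 and Plk1, the central mitotic regulators, and for Cenpf, Hmmr and Ndc80, whose fitted log2 fold changes were the lowest (for Cenpf with 1 siFxr1 signal near background). It is written 5′ to 3′ along the gene, with CHR cores and CCAAT boxes in capitals, on either strand (a CCAAT box on the other strand reads ATTGG). The stretches lie at chr13:100786457-100786566 (minus strand, Ccnb1), chr4:118437314-118437423 (minus, Cdc20), chr7:122159355-122159464 (plus, Plk1), chr1:189688057-189688166 (minus, Cenpf), chr11:40733408-40733517 (minus, Hmmr) and chr17:71526828-71526937 (minus, Ndc80) of GRCm38.p6.
Ccnb1: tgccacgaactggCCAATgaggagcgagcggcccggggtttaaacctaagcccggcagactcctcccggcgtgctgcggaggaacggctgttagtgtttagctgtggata
Cdc20: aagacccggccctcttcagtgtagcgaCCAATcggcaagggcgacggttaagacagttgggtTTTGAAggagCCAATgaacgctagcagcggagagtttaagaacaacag
Plk1: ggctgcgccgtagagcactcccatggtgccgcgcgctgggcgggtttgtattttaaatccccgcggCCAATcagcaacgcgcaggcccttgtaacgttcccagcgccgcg
Cenpf: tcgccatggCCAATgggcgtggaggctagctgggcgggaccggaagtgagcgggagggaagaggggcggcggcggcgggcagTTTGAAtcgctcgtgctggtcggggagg
Hmmr: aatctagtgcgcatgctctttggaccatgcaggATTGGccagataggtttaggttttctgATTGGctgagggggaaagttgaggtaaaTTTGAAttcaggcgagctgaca
Ndc80: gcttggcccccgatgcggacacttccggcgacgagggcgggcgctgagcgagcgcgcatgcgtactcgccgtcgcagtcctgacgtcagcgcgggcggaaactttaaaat
Cdc20, Cenpf and Hmmr held a CHR core in this stretch, at -18, 2 and 8 bases from the start. The cores of Plk1 and Ndc80 began 30 and 29 bases after the start. They thus lay past the printed stretch, but for the first base of the Ndc80 core. Ccnb1 had none in its promoter.

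Among measured genes with a listed promoter, the 27 with a CHR core had median differences of -0.02 in experiment 1 and -0.76 in experiment 2, and the 11 without had 0.07 and -0.51. Those without were Birc5, Bub1, Ccnb1, Cdc25b, Cenpe, Gtse1, Mad2l1, Ncaph, Nek2, Nuf2 and Pttg1. Both sets were thus near 0 in experiment 1 and lower in siFxr1 in experiment 2, and the difference between them was not tested.

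Among the 10 genes of the cyclin-dependent kinase switch, the median difference was 0.09 in experiment 1 and -0.42 in experiment 2. Plk1, the kinase that helps to activate CDC25 and later drives spindle assembly (probe at chr7:129313220-129313279 of mm9), read 14.54 and 15.50 in siControl and 14.15 and 14.42 in siFxr1 of experiments 1 and 2. Both siFxr1 arrays were below both siControl arrays, and siControl of experiment 2 was the highest. The log2 fold change was -0.74 (SE 0.42, adjusted p in limma 0.975), or -0.25 without that array. Cdc25c, a phosphatase that removes the inhibitory phosphates from the mitotic kinase, read 9.31 and 10.64 in siControl and 9.43 and 9.36 in siFxr1. The other 3 signals of Cdc25c lay close together and siControl of experiment 2 above them, so that the log2 fold change of -0.57 (SE 0.54) became 0.09 without it.

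Ccnb1, which encodes cyclin B1 (chr13:101548722-101548781 of mm9), read 13.27 and 13.73 in siControl and 13.31 and 13.14 in siFxr1, a log2 fold change of -0.27 (SE 0.24). The conditions overlapped, and its 2 dimmer probes differed by -0.14 and -0.11. Without siControl of experiment 2 the difference of Ccnb1 was -0.04 at its brightest probe. The dimmer probes were higher in siFxr1 in experiment 1, at 0.45 and 0.34, and lower in experiment 2, at -0.73 and -0.56. For Ccna2, cyclin A2, the siControl signals were 13.84 and 14.20 and the siFxr1 signals 13.69 and 13.54, with no overlap and a log2 fold change of -0.41 (SE 0.21), or -0.22 without siControl of experiment 2. Ccnb2, cyclin B2, did not overlap either, at -0.08 in experiment 1 and -0.42 in experiment 2. Aurka, the kinase of the centrosomes, and Cdc25b and Nek2 overlapped, with log2 fold changes of -0.13, -0.12 and 0.03.

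Foxm1, at its brightest probe, and Gtse1 ran the other way. Foxm1, the transcription factor that switches on many of the other genes, read 12.45 and 12.46 in siControl and 12.69 and 12.71 in siFxr1, a log2 fold change of 0.25 (SE 0.15). Its replicates had an SD of 0.01 in each condition, both siFxr1 arrays were above both siControl arrays, and the difference was 0.25 also without siControl of experiment 2. A second, dimmer probe of Foxm1 overlapped, at 8.44 and 8.72 in siControl and 8.72 and 8.47 in siFxr1, with a log2 fold change of 0.02, so the probes did not share a pattern. Gtse1, a microtubule-binding protein that restrains p53 in G2, read 10.38 and 11.39 in siControl and 11.11 and 11.74 in siFxr1. It was higher in siFxr1 in each experiment but overlapped between them, with a log2 fold change of 0.54 (SE 0.49), which was 0.04 without siControl of experiment 1 and 1.04 without siControl of experiment 2.

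The 9 checkpoint and APC/C genes had median differences of 0.02 in experiment 1 and -0.61 in experiment 2. Bub1b, which encodes the checkpoint kinase BUBR1 (chr2:118466830-118466889 of mm9), read 11.58 and 13.10 in siControl and 11.38 and 11.83 in siFxr1. Espl1, separase, the protease that cuts the cohesin ring at anaphase (chr15:102153644-102153882), read 10.66 and 12.51 in siControl and 10.68 and 11.39 in siFxr1. In each of them the conditions overlapped and siControl of experiment 2 was highest. Within experiments 1 and 2 the differences were -0.20 and -1.28 for Bub1b and 0.02 and -1.12 for Espl1. The log2 fold changes were -0.74 (SE 0.64) for Bub1b and -0.55 (SE 0.79) for Espl1. Without that array they were 0.02 and 0.38, which sets siFxr1 of both experiments against siControl of experiment 1 alone.

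Cdc20, the APC/C activator that the checkpoint restrains (chr4:118105534-118105593 of mm9), read 14.68 and 15.46 in siControl and 14.52 and 14.70 in siFxr1, a log2 fold change of -0.46 (SE 0.35), or -0.07 without siControl of experiment 2. Pttg1, securin, the inhibitor of separase, did not overlap, at 15.27 and 15.54 in siControl and 15.06 and 14.93 in siFxr1. Bub1, a checkpoint kinase, was printed in 10 spots per array, which agreed to an SD of 0.04 to 0.07. Its signal was 11.29 and 11.85 in siControl and 11.27 and 11.30 in siFxr1, so 3 arrays were alike and siControl of experiment 2 was higher (experiment 1 minus experiment 2 in siControl, -0.56). The SD over spots covers technical error on an array only. Mad2l1, the checkpoint protein MAD2, was higher in siFxr1 in both experiments, at 12.55 and 12.04 in siControl against 12.81 and 12.38, with overlap and a log2 fold change of 0.30 (SE 0.30), or 0.05 without siControl of experiment 2. Bub3 and Ube2c, the ubiquitin-conjugating enzyme of the APC/C, differed by 0.07 and -0.02, and Ttk, the kinase MPS1, by -0.37.

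The 6 kinetochore and centromere genes had median differences of -0.09 and -0.74. Cenpf, a kinetochore protein of late G2 and mitosis (chr1:191464978-191465037 of mm9), was measured by a dim probe, at 6.23 and 6.91 in siControl and 4.92 and 5.32 in siFxr1, where its probe was not well above background in experiment 1. Its siFxr1 level was thus measured on 1 array, and the fitted log2 fold change of -1.45 (SE 0.34, adjusted p in limma 0.967) includes a signal that is only a bound. In experiment 2, where both samples were well above background, the difference was -1.59. Ndc80, the subunit that grips the microtubule (chr17:71860793-71861755), read 10.93 and 11.93 in siControl and 10.40 and 10.47 in siFxr1, again with no overlap, and its log2 fold change was -0.99 (SE 0.42). Without siControl of experiment 2 the value for Ndc80 was -0.49.

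Its partners in the NDC80 complex overlapped between conditions, with log2 fold changes of -0.20 for Nuf2 and -0.11 for Spc25. A second, dim probe of Nuf2 was not well above background on either siFxr1 array, with mean signals of 5.82 in siControl and 4.49 in siFxr1. That makes it at least 1.93-fold lower (adjusted p in limma 0.950), taking for each siFxr1 array the probe's own signal or, if higher, the dimmest signal that was still well above background there. Cenpa, the centromeric histone, was at 0.40 in the first experiment and at -0.75 in experiment 2, and Cenpe, a kinetochore motor, was lower in both, at -0.27 and -0.46.

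Of the 3 chromosomal passenger genes, Birc5 (survivin, which brings the complex to centromeres; chr11:117716978-117717037 of mm9) differed alike in both experiments at its brightest probe. It read 15.80 and 15.48 in siControl and 14.97 and 14.51 in siFxr1, a log2 fold change of -0.90 (SE 0.26, adjusted p in limma 0.975) with no overlap. Its highest array was siControl of experiment 1, the difference without siControl of experiment 2 was -1.06, and its 2 other probes differed by -0.90 and -0.60. Their siControl signals were 12.48 and 12.85 for the first and 11.28 and 11.61 for the second, against 11.85 and 11.69 and against 11.14 and 10.55 in siFxr1, so these probes differed less in experiment 1 (-0.63 and -0.14) than in experiment 2 (-1.16 and -1.06). Incenp, the scaffold of the complex, read 14.52 and 14.92 in siControl and 14.54 and 14.63 in siFxr1, at -0.13 (SE 0.22), and Aurkb read 4.84 and 5.18 in siControl and 5.69 and 3.97 in siFxr1. Aurkb was near background, so no direction is read from it.

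The 6 kinesins and spindle genes had the lowest median in experiment 2, -0.89, and -0.11 in experiment 1. The highest array was siControl of experiment 2 in 6 of 6, as in 36 of all 45 measured mitosis genes and 26.4% of all measured genes. Hmmr, a spindle protein and hyaluronan receptor (chr11:40515324-40515383 of mm9), read 12.38 and 12.97 in siControl and 11.16 and 11.35 in siFxr1. Both siFxr1 arrays were below both siControl arrays by more than 1 on the log2 scale, the differences were -1.22 and -1.62, and the log2 fold change was -1.42 (SE 0.28, adjusted p in limma 0.950), or -1.13 without siControl of experiment 2. Kif2c, the microtubule-depolymerizing kinesin MCAK (chr4:116832904-116832963), read 9.74 and 11.58 in siControl and 9.80 and 10.28 in siFxr1. Here the siFxr1 signals lay between the siControl ones, and the differences within experiments 1 and 2 were 0.07 and -1.30. The log2 fold change of -0.62 (SE 0.76) was 0.30 without siControl of experiment 2, which leaves siFxr1 of that experiment without its partner. A second probe of Kif2c was lower in both experiments, at -0.12 and -1.20.

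Kif11, the motor that separates the spindle poles, did not overlap, at 10.36 and 10.75 in siControl against 10.21 and 9.76 in siFxr1, with differences of -0.15 and -0.99. Tpx2, the activator of Aurora A on the spindle, had 2 probes of one direction and different size. The brighter read 12.38 and 13.41 in siControl and 12.21 and 12.63 in siFxr1, at -0.47, and the dimmer read 8.17 and 8.32 against 7.09 and 6.66, at -1.37 and with no overlap. Kif4 differed by -0.29 and Ckap2 by -0.10, both with overlap. In all 12 genes with several probes the probes shared a direction of the log2 fold change.

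The 6 genes of the central spindle and cytokinesis had medians of -0.03 and -0.58. Ect2, the exchange factor that activates RhoA at the cleavage furrow (chr3:26996278-26996337 of mm9), read 12.19 and 12.18 in siControl and 11.81 and 11.49 in siFxr1. Its siControl replicates had an SD of 0.01, both siFxr1 arrays were below them, and the log2 fold change of -0.54 (SE 0.19) was -0.54 also without siControl of experiment 2. Kif23, the motor of centralspindlin (chr9:61767492-61767732), read 11.03 and 12.08 in siControl and 10.99 and 11.22 in siFxr1, with overlap. Kif23 was at -0.04 and -0.86 within experiments 1 and 2, and its log2 fold change of -0.45 (SE 0.44) became 0.07 without that array. Its partner Racgap1, the midzone protein Prc1, the ring scaffold Anln and the motor Kif20a overlapped too, with log2 fold changes from -0.20 (Racgap1) to -0.37 (Kif20a).

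In the last group of 6, chromosome structure and the proliferation marker Mki67, the medians were 0.00 and -0.69. Mki67, which encodes the Ki-67 antigen that coats mitotic chromosomes (chr7:142881591-142881650 of mm9), read 13.50 and 15.61 in siControl and 12.98 and 14.47 in siFxr1. It was lower in siFxr1 in each experiment, at -0.52 and -1.14, but differed more between experiments than between conditions. The SE of 1.02 of its log2 fold change of -0.83 includes that difference between experiments. Without siControl of experiment 2 the value was 0.23, which sets siFxr1 of both experiments against siControl of experiment 1 alone. Ncapg, a condensin subunit (chr5:46091679-46091738), was measured by a dim probe, though well above background on all 4 arrays. Ncapg read 7.32 and 7.09 in siControl and 6.52 and 6.29 in siFxr1. It did not overlap, differed by -0.80 and -0.79, and its log2 fold change of -0.80 (SE 0.19, adjusted p in limma 0.967) was -0.91 without siControl of experiment 2. Top2a, the topoisomerase that untangles sister chromatids (chr11:98855522-98855581), read 11.80 and 13.26 in siControl and 12.03 and 12.38 in siFxr1, with overlap. Top2a was at 0.23 and -0.87 within experiments 1 and 2. Its log2 fold change of -0.32 (SE 0.61) was 0.41 without siControl of experiment 2. The condensin core subunits split, with Smc4 at -0.33 and no overlap and Smc2 at 0.10 with overlap.

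**Figure D4:**
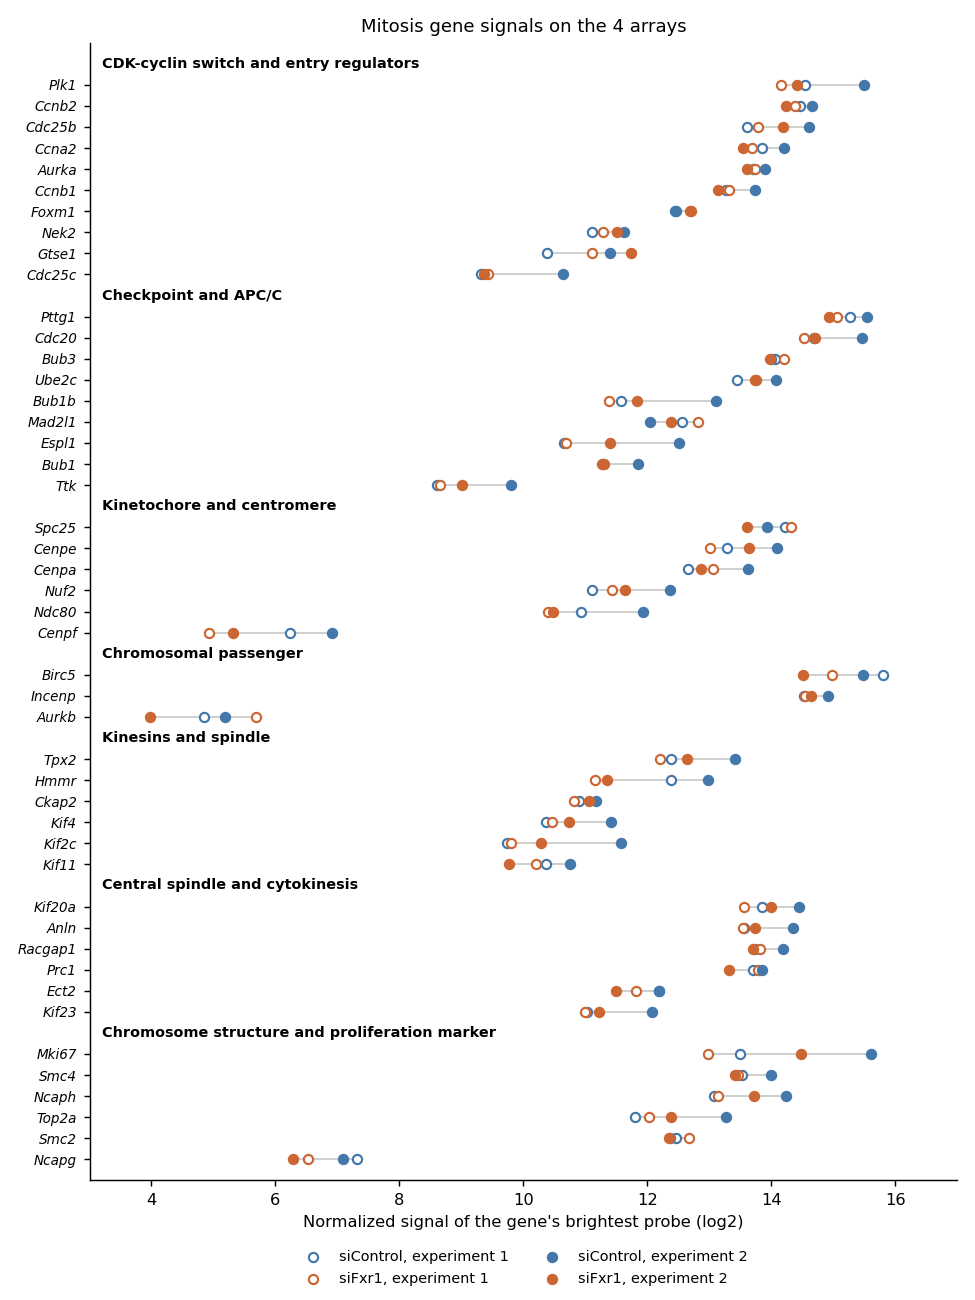
Normalized log2 signal of the brightest probe of each of the 46 mitosis genes on the 4 arrays, grouped by role, with siControl in blue, siFxr1 in orange, experiment 1 as open and experiment 2 as filled circles, and a line over the range. The filled blue circle is the rightmost for 36 of the genes, and for Hmmr, Cenpf and Ndc80 both orange circles lie left of both blue ones.

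The 2 experiments also differed from each other within a condition. Between siControl arrays, experiment 1 minus experiment 2 had a median of -0.60 over the 45 measured genes, from -2.11 (Mki67) to 0.51 (Mad2l1), and between siFxr1 arrays the median was -0.09, from -1.49 (Mki67) to 0.70 (Spc25). Over all measured genes these medians were 0.05 and 0.08. The value of Mad2l1 is that of its brightest probe. Its 2 dimmer probes went the other way, at -1.03 and -2.04 in siControl and -1.08 and -1.77 in siFxr1. Higher in experiment 2 in both conditions were 26 of the 45 genes, where 33.1% of all measured genes were, and 7 were higher in experiment 1 in both, where 41.4% were. When each array was scaled to its 75th percentile instead of quantile-normalized, the medians were -0.25 and 0.16 for the mitosis genes against 0.16 and 0.23 for all genes, so the sign within siFxr1 flipped while the mitosis genes stayed below all genes. With this scaling siControl of experiment 2 was the highest array for 27 of the 45 measured genes, against 22.6% of all genes.

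Muscle differentiation genes stood the other way between the experiments. Over 22 of them, experiment 1 minus experiment 2 had a median of 2.02 in siControl and 2.04 in siFxr1, and Myog, the transcription factor of myoblast differentiation, read 15.64 and 13.50 in siControl and 15.51 and 13.42 in siFxr1 of experiments 1 and 2. Between conditions these genes had medians of 0.00 in experiment 1 and 0.11 in experiment 2, with log2 fold changes of 1.07 for Chrnd, -1.0 for Mybph and -0.92 for Actc1. The part of the cells' differentiation in the signals of the mitosis genes was not tested.

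Cdkn1a, the gene of p21, was measured by 3 probes. The brightest, printed in 10 spots, read 15.44 and 13.33 in siControl and 15.52 and 15.04 in siFxr1, so 3 arrays lay close together and siControl of experiment 2, where most mitosis genes were highest, was lowest. Its differences were 0.08 in experiment 1 and 1.71 in experiment 2, with a log2 fold change of 0.90 (SE 0.86). A dimmer probe, annotated to another transcript, read 6.33 and 6.73 in siControl and 9.19 and 10.62 in siFxr1. It did not overlap and had a log2 fold change of 3.37 (SE 0.60). The third read 6.57 and 7.84 in siControl and 7.17 and 8.52 in siFxr1, with overlap, and differed by 0.64. On both dimmer probes siControl of experiment 1 was the lowest array, so they did not share the pattern of the brightest. Over the 5 measured CDK inhibitors the medians were -0.14 and -0.43, with 0 of them passing the limma test, Cdkn1c at 1.30 and Cdkn1b at -0.70. Whether the Cdkn1a signal bears on that of the mitosis genes was not tested.

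Other genes of cell division stood much like the 46. Of 106 further mitosis genes, 102 were on the array and 100 measured, with median differences of -0.07 in experiment 1 and -0.59 in experiment 2. In siFxr1, 58 of these 100 were lower in both experiments and 8 higher in both, against 29.8% and 34.1% of all measured genes. At least 1.5-fold lower in experiment 2 were 52, against 14.7% of all. For 64 of them siControl of experiment 2 was the highest array, against 26.4% of all. The largest log2 fold changes were 1.69 for Psrc1, a spindle protein, then -1.49 for Fam83d, -1.08 for Kif15, -1.07 for Cit and -1.0 for Cenpn. Psrc1 went against its list in both experiments, at 9.37 and 9.98 in siControl and 10.83 and 11.90 in siFxr1.

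DNA replication and G1/S genes, 43 measured of 44, had medians of -0.06 and -0.68. Of these 43, 25 were lower in both experiments and 2 higher in both, against 29.8% and 34.1% of all measured genes. At least 1.5-fold lower in experiment 2 were 26, against 14.7% of all. Cdc45, Gins2 and Mcm10, parts of the replication machinery, had log2 fold changes of -0.79, -0.78 and -0.78. In both lists 0 genes had a limma adjusted p under 0.05. Without siControl of experiment 2 the median log2 fold change was -0.11 for the further mitosis genes and -0.16 for the replication genes, in place of -0.31 for each, beside 0.04 for the 45 mitosis genes and 0.02 for all genes. Lower signals in siFxr1 of experiment 2 were thus found in both of these lists as well.

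**Figure D5:**
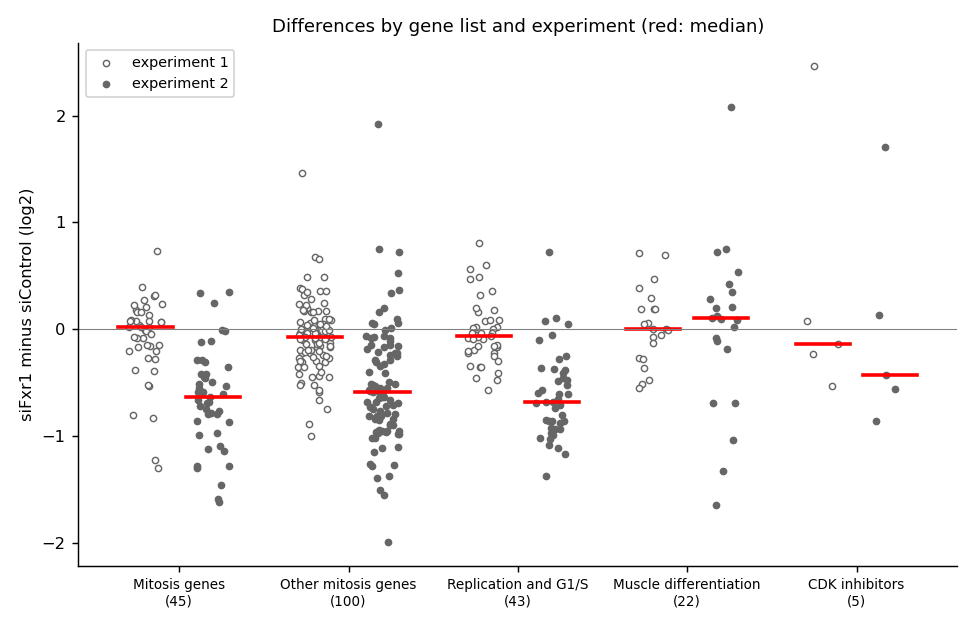
Log2 difference of siFxr1 minus siControl for each measured gene of 5 lists, with open circles for experiment 1, filled circles for experiment 2 and red bars at the medians. The mitosis, further mitosis and replication lists have medians of -0.63, -0.59 and -0.68 in experiment 2 and between -0.07 and 0.02 in experiment 1, and the muscle differentiation list lies at 0.00 and 0.11.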

How the data were processed

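RNA of C2C12 cells in 2 conditions, from 2 independent experiments each, was labelled with Cy3 and hybridised on one-colour Agilent mouse arrays with 60-base probes. For every spot the authors deposited the intensity given by Agilent Feature Extraction 10.7.3.1, background-corrected within its array and not normalized between arrays. Their table of normalized intensities, deposited as well, ranks spots as the raw median intensity of each array does (Spearman 1) and served as an alternative. Samples were grouped by their labels, and all 4 were used.

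In R 4.3.3 with limma 3.58.1, background-corrected intensities of the 59305 spots that were not controls were taken to log2 and quantile-normalized. Between 145 and 177 outlier spots per array were set to missing, and spots of a probe were averaged. All 55681 probes were fitted with lmFit and eBayes on condition alone, since the study's methods state no block. They select transcripts at a B value above 0. Benjamini-Hochberg adjustment ran over all probes. To be well above background, a probe needed the software's mark on at least 0.5 of its spots. The brightest probe stood for a gene. The fold used for counts was 1.5. Probe positions follow the array's annotation (mm9), and promoters are RefSeq's, on GRCm38.p6.

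The replicate numbers pair the samples, because by the labels both arrays of an experiment were on 1 slide. Same-numbered samples deviated together from their condition means (r = 0.714), and the experiments separated on the first principal component (60.8% of the variance). The median residual SD was 0.384 without and 0.183 with a block for experiment.

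The 46 genes and the lists set beside them were chosen with earlier results of these data known, so no test was run over a list. Values on every array are given for the 2 members of each role with the largest log2 fold change and for Mki67, Ccnb1, Cdc20, Plk1 and Top2a. Values on every array of other members were added after they were seen. From the other lists, the genes with the largest changes are named. Alternatives were 75th percentile scaling, normexp (offset 50), raw median intensities, the authors' table, the mean over a gene's probes, leaving dim probes out, a block for experiment, ratios of single arrays as observations, an intensity trend in the variance prior, and leaving out each array. Counts of genes highest on siControl of experiment 2 were added after seeing the data. Promoters of Aurkb, Ccna2, Cdc25c, Foxm1, Incenp, Kif20a, Smc4 and Tpx2 were not used here.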

Additional observations from a re-analysis of the deposited data

How the results depend on the processing

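Under the alternatives run, the 46 genes kept 0 calls at an adjusted p under 0.05 or a B value above 0 in limma, also with the experiment as a replicate block, alone or with a filter on dim probes. The exception was the fit that took the 4 ratios between siFxr1 and siControl arrays as observations, where 1 gene passed each threshold, Hmmr, with an adjusted p in limma of 0.049. Those ratios share arrays. Scaling to the 75th percentile raised the genes higher in both experiments from 3 to 5. The median log2 fold change over all 46 genes ran from -0.66 to 0.04 when 1 array was left out, the last without siControl of experiment 2. Of 642 values of single genes under an alternative, 600 kept their direction and their side of the threshold and 41 reversed, in 26 genes.

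Another scaling or background correction reversed 3 genes near 0. Aurkb, near background and not read as a difference, moved from -0.18 to 0.18 with normexp, 0.15 with no background correction and 0.16 in the authors' table. Ube2c moved from -0.02 to 0.03 with the 75th percentile, 0.07 with normexp, and 0.06 with no background correction and in the authors' table. Nek2 moved from 0.03 to -0.03 with normexp, with no background correction and in the authors' table.

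Leaving out 1 array at a time reversed the log2 fold change of 26 genes, mostly without siControl of experiment 2. That leaves an siFxr1 sample without its partner and mixes condition with experiment: 7 of the reversed genes (Anln, Bub1b, Cenpe, Ckap2, Kif23, Mki67 and Tpx2) were lower in siFxr1 within both experiments. The value of Cdc25b ran from -0.62 to 0.38, of Cdc25c from -1.24 to 0.09, of Aurkb from -1.03 to 0.68, of Bub1b from -1.50 to 0.02, of Bub3 from -0.04 to 0.18, of Ttk from -0.97 to 0.23 and of Nuf2 from -0.83 to 0.43. That of Spc25 ran from -0.46 to 0.23, of Cenpa from -0.66 to 0.30, of Cenpe from -0.77 to 0.04, of Incenp from -0.33 to 0.06, of Kif23 from -0.97 to 0.07, of Kif2c from -1.54 to 0.30 and of Kif4 from -0.81 to 0.23. That of Tpx2 ran from -0.99 to 0.04, of Prc1 from -0.46 to 0.01, of Anln from -0.72 to 0.07, of Top2a from -1.05 to 0.41, of Mki67 from -1.88 to 0.23, of Ube2c from -0.34 to 0.29 and of Nek2 from -0.23 to 0.28. That of Ckap2 ran from -0.23 to 0.04, of Racgap1 from -0.43 to 0.03, of Smc2 from -0.06 to 0.26, of Ncaph from -0.80 to 0.35 and of Espl1 from -1.48 to 0.38. The 20 other genes, among them Plk1, Ccnb1, Cdc20, Cenpf, Ndc80, Birc5, Hmmr, Ect2 and Ncapg, kept their direction in every fit. That is read at a gene's brightest probe or the mean over its probes, not at each dimmer probe. The dimmer probes of Ccnb1 were higher in siFxr1 in experiment 1, at 0.45 and 0.34, and lower in experiment 2. The cause of the shifts on leaving out an array was not tested. The fit had 2 residual degrees of freedom, or 1 with the block.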
